A study of Homo sapiens with 18 samples.

Results

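HRK and its relatives of the BCL2 family, the genes that set the threshold of mitochondrial apoptosis, were followed across 18 RNA libraries of LNCaP cells. The 10 genes were chosen by symbol, with earlier results of these data known, so counts of them beside all tested genes are description only. They were the BH3-only genes HRK, BMF, BBC3, PMAIP1 and BCL2L11, the pro-survival genes BCL2, BCL2L1 and MCL1, and the effector genes BAX and BAK1. Each matched 1 row among the 58735 genes of the read count table, and all 10 were among the 17162 genes with enough counts to be tested.

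In this pathway BAX and BAK1 open pores in the outer mitochondrial membrane, which releases cytochrome c and leads to caspase activation. BCL2, BCL2L1 (BCL-XL) and MCL1 hold them in check, and BH3-only proteins such as HRK (harakiri), BMF, BBC3 (PUMA), PMAIP1 (NOXA) and BCL2L11 (BIM) bind the pro-survival proteins or activate the effectors directly. BH3-only genes are largely regulated at the level of transcription, and in prostate cancer cells androgen is known as a survival signal.

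LNCaP is an established human prostate cancer line that carries a responsive androgen receptor. In all groups, controls included, HOXB13 was targeted by a hairpin RNA and an inducible rescue construct was added. HOXB13 is a homeobox factor of the prostate that binds with the androgen receptor. The construct was empty (EV, for empty vector), held wild-type HOXB13 (WT) or held a HOXB13 with alanine in place of 3 phosphorylation sites (3A). Cells were kept for 48 h in 2% charcoal-stripped serum, a serum depleted of steroids. Then cells of each rescue state received 0.1% ethanol as vehicle or 10 nM R1881, a synthetic androgen, for 24 h. This gave 6 groups of 3 libraries: EV, WT and 3A with vehicle, and EV, WT and 3A with R1881. The labels give replicate numbers and do not say whether replicates were separate cultures or clones, so p-values measure only library-to-library spread, which could be technical. In bulk RNA, fewer cells of a type and less RNA per cell cannot be told apart.

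Library totals ran from 22812641 to 30611980 counts, and mitochondrially encoded RNA took 2.71% to 5.70% of them, and this share was lower in EV with R1881 (3.61% to 4.24%) than in EV with vehicle (4.46% to 5.39%) without overlap. Its part in the results was not tested. HOXB13 RNA averaged 532 CPM (CPM, the read count relative to the scaled library total, is the unit of all levels except FPKM) in EV and 535 in WT with vehicle, and 416 and 347 with R1881, so it was not higher in WT than in EV. It averaged 758 and 506 CPM in 3A, above WT in both treatments by edgeR (log2 difference 0.50, adjusted p = 0.00807 with vehicle, and 0.55, adjusted p = 0.00595 with R1881) and above EV with vehicle (0.51, edgeR adjusted p = 0.00482). Reads of the hairpin's target and of the rescue construct share 1 row and cannot be told apart. FKBP5, an androgen receptor target, rose with R1881 in every state, by 4.98, 4.35 and 4.58 on the log2 scale in the order EV, WT and 3A, with adjusted p by edgeR at or under 7.07e-16. All 10 luminal prostate markers had enough counts to be tested, and their summed level ran from 3395 to 4587 CPM with vehicle and from 9529 to 14167 CPM with R1881. With R1881 the sum was 13175 to 14167 CPM in EV, 9529 to 10326 in WT and 11764 to 12130 in 3A. By edgeR R1881 raised 7 of these markers and lowered 2, FOLH1 and HOXB13, in every state. Of all tested genes it raised 13.2%, 11.0% and 12.4% and lowered 12.0%, 9.14% and 12.1% in EV, WT and 3A. The HOXB13 call in EV was lost on leaving out a single library. With R1881 5 of the 10 were called lower in WT than in EV, beside 4.04% of all tested genes. The calls of KRT8, KRT18 and SLC45A3 stayed without any 1 library, and those of KLK3 and KLK2 were lost. With vehicle 2, KLK3 and KLK2, were called lower in WT than in EV, beside 0.122%. Both of these calls were lost on leaving out a single library. TP63 of basal cells and CD3E of T cells were at 0 in every library, and the summed leukocyte markers reached at most 0.289 CPM. KRT14, the only basal marker with enough counts to be tested, was called higher with R1881 in all 3 states by edgeR, from means of 0.0371, 0.184 and 0.0473 CPM in EV, WT and 3A to 0.382, 2.15 and 0.709 CPM. The call in EV was lost on leaving out replicate 1, 2 or 3 of EV with vehicle or replicate 3 of EV with R1881. The summed endothelial markers, of which only VWF was tested, were 3.40 to 5.70 CPM in EV with vehicle and 11.0 to 12.3 CPM in WT and 3A with vehicle. With R1881 they were 3.25 to 4.10 CPM in EV, 5.5 to 6.60 CPM in WT and 3.94 to 5.31 CPM in 3A, and VWF was called lower by edgeR in WT (-0.98) and 3A (-1.33). The summed fibroblast markers were 18.9 to 21.96 CPM (EV), 19.5 to 22.9 CPM (WT) and 19.4 to 26.7 CPM (3A) with vehicle, and 13.3 to 18.6, 14.0 to 16.0 and 14.0 to 20.7 CPM with R1881, without overlap in EV and WT. The part of these markers in the results was not tested.

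HRK lies on hg38 chr12:116856144-116881441 (minus strand, ENSG00000135116) and had among the lowest levels of the 10 genes. Compared per length in the deposited FPKM, MCL1 was highest and BCL2L1 next by mean in all 6 groups. Every MCL1 library lay above every library of the other genes in its group. BCL2L1 lay above the remaining genes in the same way in 5 groups; in WT with vehicle 1 BAX library (17.7 FPKM) exceeded the lowest BCL2L1 library (17.4 FPKM). In EV with vehicle the order of mean FPKM was MCL1 at 58.3 ± 3.39 (SD, n = 3), BCL2L1 at 19.4 ± 2.17, PMAIP1 at 12.1 ± 1.23, BAX at 11.8 ± 1.78, BAK1 at 9.26 ± 1.04, BBC3 at 7.17 ± 0.993, BCL2L11 at 4.95 ± 0.695, BMF at 1.98 ± 0.196, HRK at 0.766 ± 0.0477 and BCL2 at 0.761 ± 0.0591. The neighbours PMAIP1 and BAX, BAX and BAK1, and HRK and BCL2 overlapped there. HRK had the lowest mean FPKM of the 10 in each of the other groups, down to 0.0935 ± 0.00258 in 3A with R1881. BCL2 stood next above it in those groups, with every BCL2 library above every HRK library. In 3A with R1881 no neighbours in the order overlapped, and the order there was MCL1, BCL2L1, BAK1, BAX, PMAIP1, BCL2L11, BBC3, BMF, BCL2 and HRK.

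**Figure D1:**
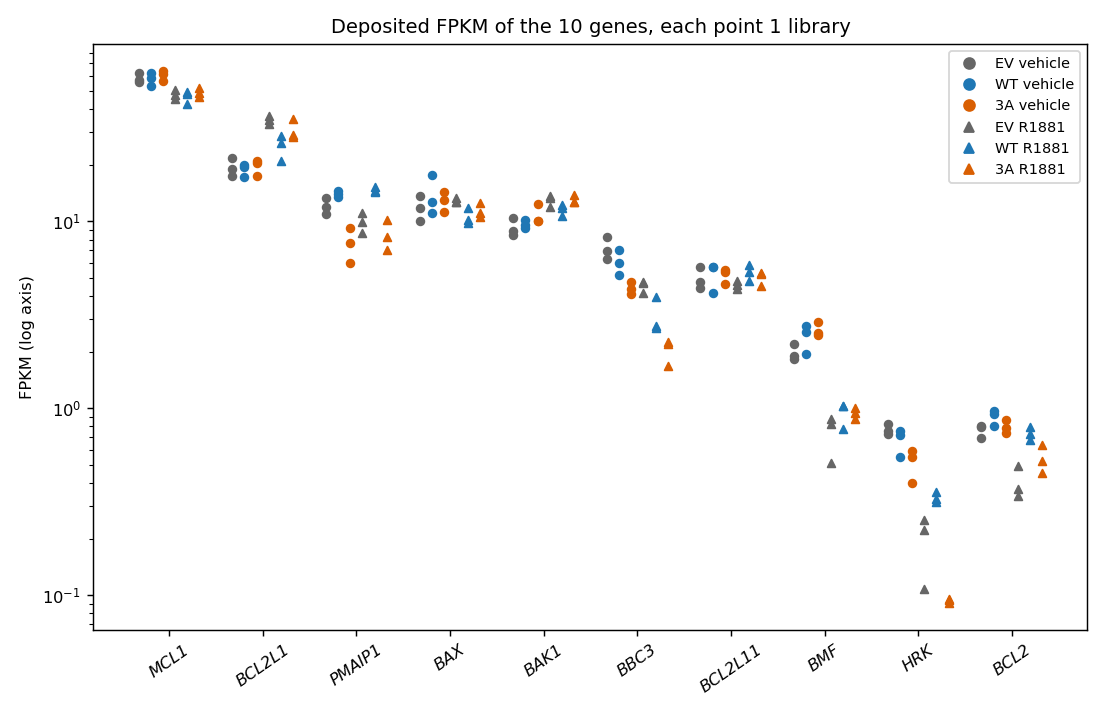
Deposited FPKM (log axis) of the 10 genes, ordered by their mean in EV with vehicle; each point is 1 library, colours mark the rescue state, circles vehicle and triangles R1881. MCL1 lies at the top in every group, and the 3 HRK points of 3A with R1881 lie lowest of all.

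The bases just upstream of HRK and BMF are shown because these 2 genes fell most with R1881, and those of BAK1 because it was the only window of 9 with the HOXB13 motif. Each line gives the 250 bases before the gene's start in RefSeq (GRCh38.p14), 5′ to 3′ on the gene's strand. The windows are chr12:116881442-116881691 for HRK, chr15:40108880-40109129 for BMF and chr6:33580277-33580526 for BAK1, all on the minus strand. The RefSeq start of BMF lay 13 bases and that of BAK1 17 bases from the start in the read count table. Capitals in BAK1 mark TTTATTGG, the reverse complement of the HOXB13 motif CCAATAAA.
HRK: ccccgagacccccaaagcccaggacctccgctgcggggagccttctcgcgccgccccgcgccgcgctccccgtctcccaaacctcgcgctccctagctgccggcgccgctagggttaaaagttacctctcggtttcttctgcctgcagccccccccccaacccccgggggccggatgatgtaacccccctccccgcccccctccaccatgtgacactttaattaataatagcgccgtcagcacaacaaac
BMF: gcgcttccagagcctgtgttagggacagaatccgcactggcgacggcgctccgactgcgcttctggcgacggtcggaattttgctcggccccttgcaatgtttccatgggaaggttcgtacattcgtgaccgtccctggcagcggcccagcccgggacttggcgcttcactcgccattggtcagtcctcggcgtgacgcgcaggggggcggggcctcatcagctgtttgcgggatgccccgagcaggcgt
BAK1: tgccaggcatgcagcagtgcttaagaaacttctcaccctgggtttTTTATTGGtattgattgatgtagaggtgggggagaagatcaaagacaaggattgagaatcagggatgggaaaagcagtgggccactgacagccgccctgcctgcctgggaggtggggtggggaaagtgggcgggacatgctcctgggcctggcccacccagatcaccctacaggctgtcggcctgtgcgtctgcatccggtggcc

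RefSeq promoter windows were at hand for 9 of the 10 genes, and 6 motifs were searched on both strands in each window of 300 bases. The full androgen response element, AGAACA and TGTTCT set 3 bases apart, matched in none of the 9 and in 0.00285% of all 35116 windows. Its right-hand repeat TGTTCT alone, which every full element contains, matched in none of the 9 and in 14.8% of all. The HOXB13 motif CCAATAAA matched in 1, BAK1 (first base at -205 from the start), and in 0.934% of all. The forkhead motif GTAAACA matched in 1, BCL2L11 (first base at -223 from the RefSeq start), and in 3.42% of all. That RefSeq start lay 1536 bases from the start of BCL2L11 in the read count table. The E2F motifs TTTCCCGC and TTTGGCGC matched in none of the 9, and in 1.63% and 0.652% of all windows. A match is a run of letters in this window and no more. The HRK window was 66.4% G or C and the BMF window 65.2%.

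The comparison of R1881 with vehicle asks how androgen moved these genes within a rescue state. HRK, BMF and BBC3 fell in all 3 states and MCL1 fell slightly, while BCL2L1 rose in all 3. BCL2 fell in EV and 3A, and BAK1 rose in EV. PMAIP1, BCL2L11 and BAX passed the test in no state. A gene was called at an adjusted p under 0.05 in edgeR's quasi-likelihood test, adjusted over all genes tested. In EV 2 genes rose and 5 fell, beside 13.2% of all tested genes that rose and 12.0% that fell. In WT 1 rose and 4 fell, beside 11.0% and 9.14%, and in 3A 1 rose and 5 fell, beside 12.4% and 12.1%. The median log2 fold change of the 10 genes was -0.29, -0.31 and -0.25 in the order EV, WT and 3A, beside -0.02, -0.03 and -0.01 over all tested genes. Without scaling factors the median of all tested genes moved by -0.11, -0.05 and -0.12 in the same order, and no called gene among the 10 changed its direction.

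**Figure D2:**
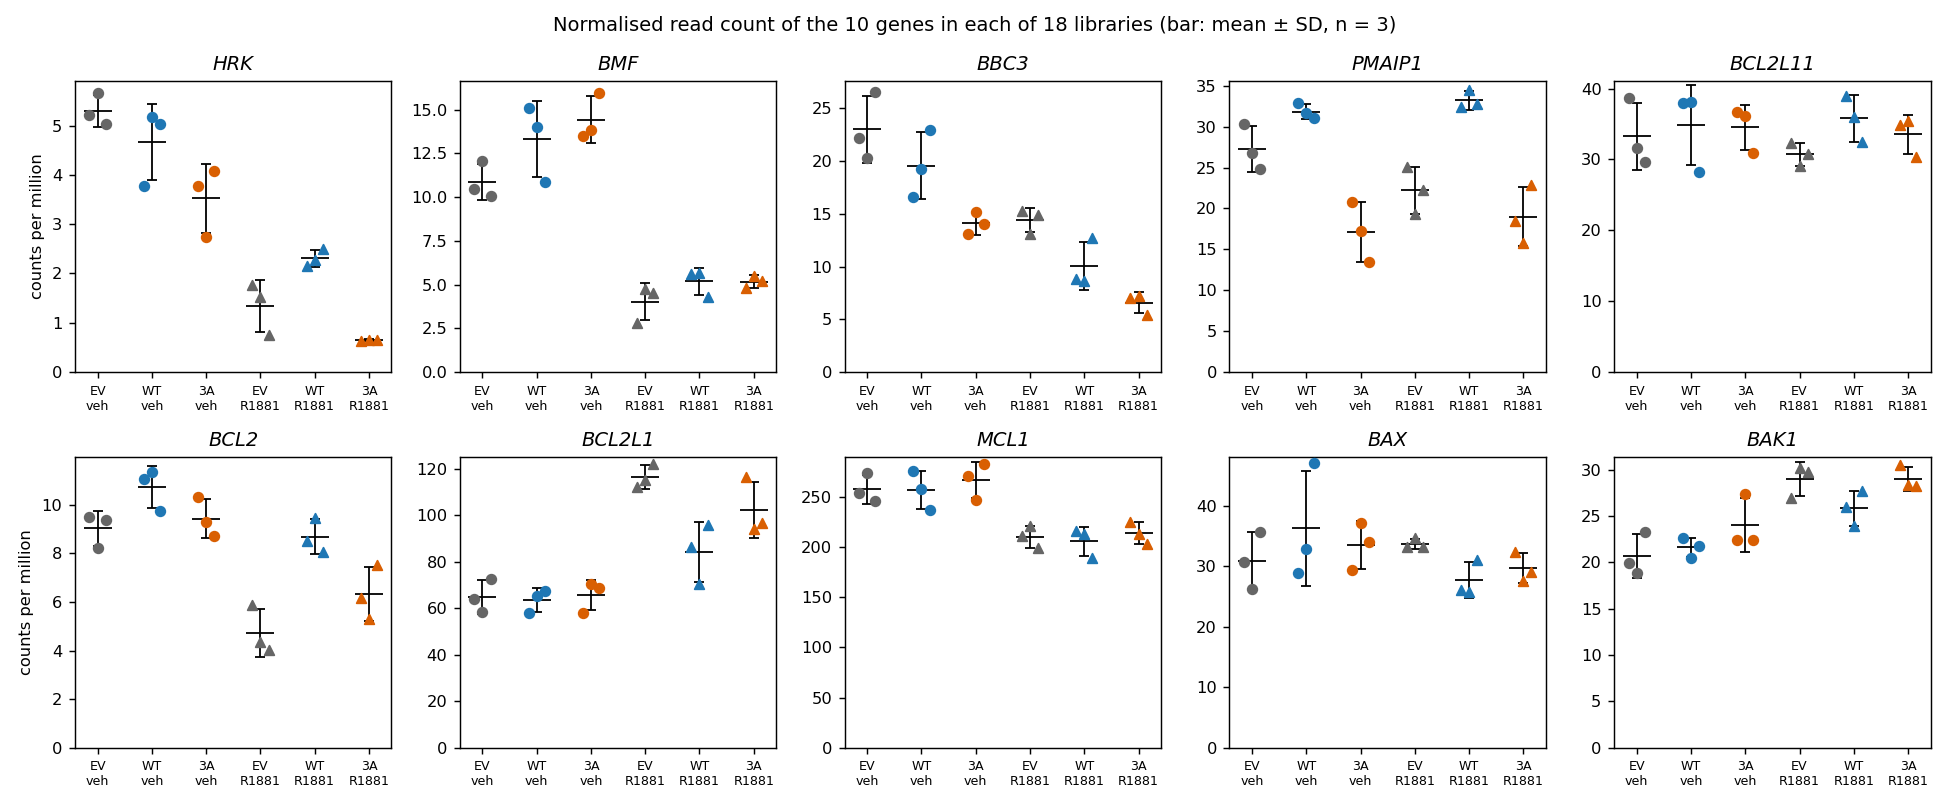
CPM of each gene in the 18 libraries (y axes start at 0); points are libraries, bars the mean ± SD of 3, circles vehicle and triangles R1881. HRK fell from 5.03 to 5.65 CPM in EV with vehicle to 0.745 to 1.76 with R1881, and BCL2L1 rose from 58.2 to 72.8 to 112 to 122.

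HRK, a BH3-only gene best known from neurons that die on loss of growth factor, showed the largest fall of the 10 in EV and 3A. Its level in EV was 5.22, 5.65 and 5.03 CPM with vehicle and 1.76, 1.53 and 0.745 CPM with R1881. In WT it was 3.78, 5.18 and 5.02 CPM with vehicle and 2.15, 2.28 and 2.49 CPM with R1881. In 3A it was 3.77, 2.73 and 4.07 CPM with vehicle and 0.620, 0.659 and 0.649 CPM with R1881. In every state all R1881 libraries lay below all vehicle libraries, and WT kept the highest HRK level under R1881. The fall was 3.93-fold in EV (log2 fold change -1.97, SE 0.26, edgeR adjusted p = 4.36e-06), 2.02-fold in WT (-1.01, SE 0.24, adjusted p = 0.00424) and 5.44-fold in 3A (-2.44, SE 0.28, adjusted p = 5.90e-07). HRK rested on few reads: 14, 19 and 18 counts in 3A with R1881, 39, 34 and 16 in EV with R1881, 52, 58 and 59 in WT with R1881 and 73 to 166 in the vehicle libraries.

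BMF, which encodes a BH3-only protein that can be held at the cytoskeleton, fell by about the same amount in each state. BMF (hg38 chr15:40087890-40108892) had 10.5, 12.1 and 10.1 CPM in EV with vehicle and 2.80, 4.76 and 4.52 CPM with R1881. In WT it had 15.1, 14.0 and 10.9 CPM and then 5.62, 5.66 and 4.31 CPM, and in 3A 13.5, 13.8 and 16.0 CPM and then 4.78, 5.52 and 5.19 CPM. No R1881 library reached a vehicle library in any state. The log2 fold change was -1.43 (EV), -1.36 (WT) and -1.48 (3A), with edgeR adjusted p of 4.51e-06, 8.53e-06 and 1.78e-06. Differences between these responses were 0.08 for WT minus EV (95% interval -0.46 to 0.61) and -0.05 for 3A minus EV (-0.59 to 0.49).

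BBC3, a BH3-only gene known as a p53 target, also fell in all 3 states. BBC3 (hg38 chr19:47220822-47232766) had 22.2, 20.3 and 26.5 CPM in EV with vehicle and 15.2, 13.1 and 14.9 CPM with R1881. WT had 16.6, 19.2 and 23.0 CPM with vehicle and 8.81, 8.68 and 12.7 CPM with R1881, and 3A had 13.1, 15.2 and 14.0 CPM with vehicle and 6.99, 7.25 and 5.41 CPM with R1881. The vehicle and R1881 libraries did not overlap within a state, and the 3 libraries of 3A with R1881 were the lowest of the 18. The log2 fold change was -0.67 (EV), -0.96 (WT) and -1.11 (3A), with edgeR adjusted p of 0.00323, 0.000155 and 3.14e-05.

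The remaining BH3-only genes did not pass the test with R1881. PMAIP1, which binds mainly MCL1, had log2 fold changes of -0.30 in EV (95% interval -0.60 to 0.01), 0.06 in WT (-0.24 to 0.36) and 0.15 in 3A (-0.16 to 0.45), with edgeR adjusted p of 0.151, 0.826 and 0.536. Without scaling factors PMAIP1 was called lower in EV (-0.41, edgeR adjusted p = 0.0358). BCL2L11, whose product binds all pro-survival members, ranged from 28.3 to 38.6 CPM with vehicle and from 29.05 to 38.9 CPM with R1881, so the groups overlapped. Its log2 fold changes were -0.12, 0.04 and -0.04, with intervals that together reached from -0.38 to 0.30.

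Among the pro-survival genes, BCL2L1 rose and BCL2 and MCL1 fell. BCL2L1 (hg38 chr20:31664452-31723989) had 64.0, 58.2 and 72.8 CPM in EV with vehicle and 112, 115 and 122 CPM with R1881. In WT it went from 57.8, 65.5 and 67.7 CPM to 86.4, 70.5 and 96.1 CPM, and in 3A from 58.2, 70.3 and 68.8 CPM to 116, 94.3 and 96.6 CPM. The groups did not overlap in any state, with the smallest gap in WT. The rise was 1.79-fold in EV (log2 0.84, edgeR adjusted p = 1.33e-05), 1.32-fold in WT (0.41, adjusted p = 0.0183) and 1.56-fold in 3A (0.64, adjusted p = 0.000309). The BCL2L1 call in WT was lost without replicate 1 of WT with vehicle (0.34) and without replicates 1 (0.39) or 3 (0.31) of WT with R1881, and with only the groups compared in the fit (0.41, edgeR adjusted p = 0.0549). BCL2L1 shares 43.0% of its exon bases with the antisense gene ABALON and is uncertain in this respect, since the strand setting of the counting is not given; ABALON averaged 0.398 to 0.737 CPM in the 6 groups. Gene counts also do not separate the long and short forms of BCL2L1, MCL1 and BCL2L11, whose products differ in function.

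BCL2 (hg38 chr18:63123346-63320128) had 9.52, 8.21 and 9.39 CPM in EV with vehicle and 5.86, 4.35 and 4.004 CPM with R1881. In WT it had 11.1, 11.4 and 9.73 CPM and then 8.52, 9.47 and 8.07 CPM, and in 3A 10.3, 9.27 and 8.70 CPM and then 6.15, 5.31 and 7.54 CPM. All R1881 libraries lay below the vehicle libraries of their state, by the narrowest margin in WT. BCL2 fell 1.90-fold in EV (log2 -0.93, edgeR adjusted p = 0.000244) and 1.49-fold in 3A (-0.57, adjusted p = 0.0119). The call in 3A was lost without replicate 1 of 3A with vehicle (-0.51) or replicate 2 of 3A with R1881 (-0.46). In WT BCL2 had a log2 fold change of -0.30 (95% interval -0.64 to 0.03, edgeR adjusted p = 0.211).

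MCL1 (hg38 chr1:150574551-150579738), whose protein turns over fast, ranged from 237 to 283 CPM in the 9 vehicle libraries and from 189 to 225 CPM in the 9 R1881 libraries, with no overlap. It fell 1.22-fold in EV (log2 -0.29, edgeR adjusted p = 0.0164), 1.25-fold in WT (-0.32, adjusted p = 0.0108) and 1.25-fold in 3A (-0.32, adjusted p = 0.00890). These small falls of MCL1 lost their calls without single libraries. In EV these were replicate 2 with vehicle (-0.23) and replicates 1 (-0.28) and 3 (-0.24) with R1881. In WT they were replicate 1 with vehicle (-0.27) and replicate 3 with R1881 (-0.26), and in 3A replicate 3 with vehicle (-0.28). With no filter on low counts the MCL1 calls in EV (-0.26, adjusted p = 0.126) and WT (-0.31, adjusted p = 0.0503) were lost as well, and so was that in WT with only the groups compared in the fit (-0.32, edgeR adjusted p = 0.0641).

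The effector genes moved little. BAK1 (hg38 chr6:33572547-33580293) had 19.96, 18.8 and 23.3 CPM in EV with vehicle and 26.9, 30.2 and 29.8 CPM with R1881, with no overlap, and it rose 1.40-fold (log2 0.48, edgeR adjusted p = 0.00220). In WT and 3A the BAK1 log2 fold changes were 0.26 and 0.27, with edgeR adjusted p of 0.110 and 0.0790, and the call in 3A was made without replicate 2 of 3A with vehicle (0.37). BAX (hg38 chr19:48954815-48961798) had log2 fold changes of 0.12 in EV, -0.39 in WT and -0.18 in 3A, with edgeR adjusted p of 0.608, 0.0736 and 0.445. The WT vehicle libraries of BAX spread from 28.9 to 47.0 CPM. Without replicate 1 of WT with vehicle BAX was called lower in WT (-0.53), and so it was without a filter on low counts (-0.37), with the replicate number as a block (-0.38) and without scaling factors (-0.43).

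**Figure D3:**
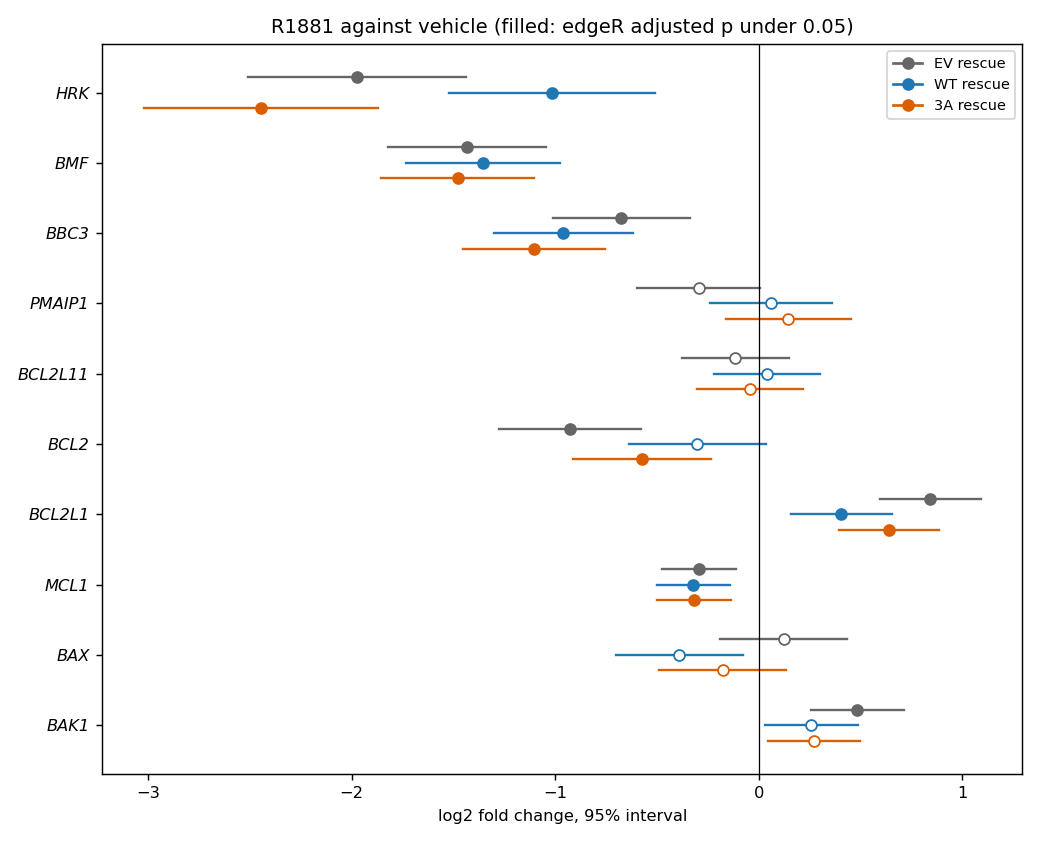
Log2 fold change of R1881 against vehicle for the 10 genes in each rescue state (x axis, edgeR, bars the 95% interval); filled points passed an adjusted p under 0.05. HRK, BMF and BBC3 lie left of 0 and BCL2L1 right of 0 in all 3 states, and the HRK point of WT lies nearest to 0.

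Whether R1881 acted differently between rescue states was tested as the difference of the log2 fold changes. By edgeR 0 of the 10 genes passed for WT minus EV, beside 0.198% of all tested genes, 0 for 3A minus EV, beside 0.0117%, and 0 for 3A minus WT, beside 0.0583%. At an unadjusted p under 0.05 there were 4 (HRK, BCL2, BCL2L1 and BAX), 1 (PMAIP1) and 1 (HRK). The share of all tested genes at this unadjusted threshold was not computed, so these counts are no result about the 10 genes. DESeq2 called 0, 0 and 1, beside 139 of 13169, 7 of 14499 and 83 of 13502 genes. The HRK response of 3A minus WT was -1.43 (95% interval -2.20 to -0.66), with an adjusted p of 0.181 by edgeR and 0.0419 by DESeq2, and adjusted p ran from 0.0419 to 0.350 over its 19 alternatives. HRK for WT minus EV was 0.96 (0.23 to 1.69, edgeR adjusted p = 0.363), and BCL2 was 0.63 (0.14 to 1.11, adjusted p = 0.375). BCL2L1 for WT minus EV was -0.44 (-0.79 to -0.09, edgeR adjusted p = 0.401).

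The comparison of WT with EV sets cells with the wild-type HOXB13 construct against cells with an empty one. HOXB13 RNA was not higher in WT than in EV by edgeR. Its log2 difference was 0.01 with vehicle (adjusted p = 0.999) and -0.26 with R1881 (adjusted p = 0.143). Whether WT cells gained HOXB13 thus cannot be told from these data, and genes not called here do not show that HOXB13 leaves them unchanged. With vehicle edgeR called 0 of the 10 genes, beside 0.769% of all tested genes. At an unadjusted p under 0.05 there were also 0, and DESeq2 called 0, beside 230 of 16828 genes. The log2 differences of the 10 genes ran from -0.23 for BBC3 to 0.29 for BMF, and HRK was at -0.18 (95% interval -0.67 to 0.30). With R1881 PMAIP1 and BCL2 were higher in WT and BCL2L1 was lower, 3 of 10 genes beside 8.70% of all tested genes in either direction.

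Under R1881 BCL2 was 1.83-fold higher in WT than in EV (log2 0.87, SE 0.17, edgeR adjusted p = 0.00264), with 8.07 to 9.47 CPM against 4.004 to 5.86 CPM. PMAIP1 had 25.0, 19.4 and 22.3 CPM in EV and 32.4, 34.5 and 32.8 CPM in WT, so the groups did not overlap, and it was 1.497-fold higher (0.58, edgeR adjusted p = 0.0159). The PMAIP1 call was lost without replicates 2 (0.48) or 3 (0.58) of EV with R1881 or replicate 2 of WT with R1881 (0.54). BCL2L1 was 1.38-fold lower in WT (-0.47, edgeR adjusted p = 0.0173), a call lost without replicate 3 of EV with R1881 (-0.44) or replicate 2 of WT with R1881 (-0.36). HRK had 0.745 to 1.76 CPM in EV and 2.15 to 2.49 CPM in WT, with no overlap, yet did not pass (log2 0.78, 95% interval 0.22 to 1.33, edgeR adjusted p = 0.0715). HRK was called higher without replicate 1 of EV with R1881 (1.005), by DESeq2 (0.77, adjusted p = 0.0400) and without scaling factors (0.85). BBC3 was at -0.52 (edgeR adjusted p = 0.0549) and was called lower without replicate 3 of WT with R1881 (-0.73), by DESeq2 (-0.52, adjusted p = 0.0206), with no filter on low counts (-0.54), with the replicate number as a block (-0.53) and with only the groups compared in the fit (-0.52).

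The comparison of 3A with WT sets HOXB13 without and with the 3 phosphorylation sites side by side, and that of 3A with EV sets the altered HOXB13 against an empty construct. Since HOXB13 RNA was itself higher in 3A than in WT, and than in EV with vehicle, its level and the loss of the sites cannot be told apart. The comparisons share the 3A libraries, so their values are given side by side and do not support each other. The genes called were HRK, BBC3 and PMAIP1, all BH3-only and all lower in 3A. The other BH3-only genes, BMF and BCL2L11, did not share this direction throughout. Against EV the log2 difference of BMF was 0.41 with vehicle (edgeR adjusted p = 0.175) and 0.36 with R1881 (adjusted p = 0.266). The 3A libraries of BMF did not overlap those of EV in either treatment. Against WT BMF was at 0.12 with vehicle and -0.01 with R1881. BCL2L11 ran from -0.09 to 0.13 in the 4 comparisons. With vehicle 2 of 10 genes were lower in 3A than in EV, beside 3.27% of all tested genes, and 1 was lower than in WT, beside 2.99%. With R1881 2 were lower than in EV, beside 4.06%, and 3 were lower than in WT, beside 1.77%. No member of the 10 was called higher in 3A in these 4 comparisons. BCL2, BCL2L1, MCL1, BAX, BAK1, BMF and BCL2L11 passed in none of them; the MCL1 difference stayed within intervals from -0.16 to 0.24.

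PMAIP1 (hg38 chr18:59899948-59904306) had 30.3, 26.8 and 24.8 CPM in EV, 32.9, 31.6 and 31.0 CPM in WT and 20.7, 17.2 and 13.4 CPM in 3A with vehicle. With R1881 it had 18.4, 15.7 and 22.9 CPM in 3A, which overlapped EV (19.4 to 25.0) and lay below WT (32.4 to 34.5). PMAIP1 in 3A was 1.85-fold lower than in WT with vehicle (log2 -0.89, edgeR adjusted p = 0.000646) and 1.75-fold lower with R1881 (-0.81, adjusted p = 0.00244). Against EV it was 1.59-fold lower with vehicle (-0.67, edgeR adjusted p = 0.00577), and with R1881 it did not pass (-0.22, 95% interval -0.53 to 0.08, adjusted p = 0.379).

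BBC3 in 3A was 1.63-fold lower than in EV with vehicle (log2 -0.71, edgeR adjusted p = 0.00718) and 2.20-fold lower with R1881 (-1.14, adjusted p = 0.000140). The BBC3 call against EV with vehicle was lost without replicate 3 of EV with vehicle (-0.59). Against WT it did not pass with vehicle (-0.48, edgeR adjusted p = 0.0891), though it did without replicate 1 of WT with vehicle (-0.58) and with the replicate number as a block (-0.47, edgeR adjusted p = 0.0484). With R1881 it was 1.54-fold lower than in WT at the edge of the threshold (-0.62, edgeR adjusted p = 0.0488). That call was lost without replicates 2 (-0.72) or 3 (-0.42) of WT with R1881, without replicates 1 (-0.66), 2 (-0.70) or 3 (-0.50) of 3A with R1881, with a filter of 1 CPM (-0.61, adjusted p = 0.0522) and with only the groups compared in the fit (-0.61, adjusted p = 0.135).

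HRK in 3A was lower than in WT with R1881 by 3.56-fold (log2 -1.83, SE 0.28, edgeR adjusted p = 0.000542), and this call held without any 1 library and in every alternative run, with values from -1.88 to -1.77. Against EV with R1881 it was 2.08-fold lower (-1.06, SE 0.30, edgeR adjusted p = 0.0292). The HRK call against EV was lost without replicates 1 (-0.83) or 2 (-0.97) of EV, without replicates 1 (-1.04), 2 (-1.08) or 3 (-1.08) of 3A, all with R1881, and with only the groups compared in the fit (-1.06, adjusted p = 0.117). With vehicle HRK was at -0.59 against EV (95% interval -1.07 to -0.10, edgeR adjusted p = 0.144) and at -0.40 against WT (-0.89 to 0.09, adjusted p = 0.355).

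**Figure D4:**
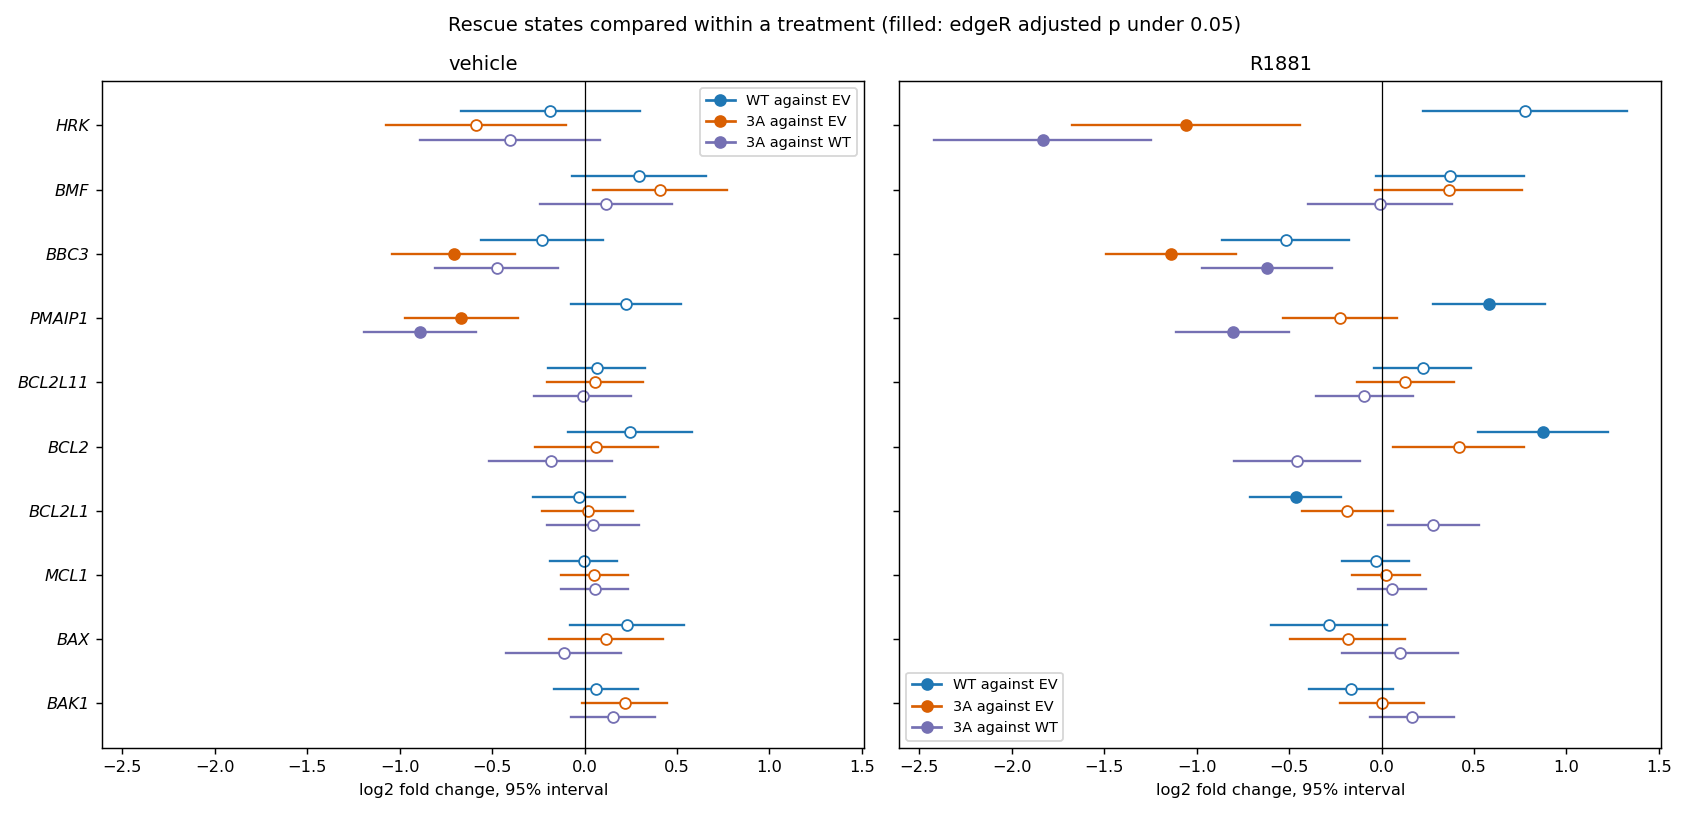
Log2 differences between rescue states with vehicle (left) and R1881 (right) for the 10 genes (x axis, edgeR, bars the 95% interval); filled points passed an adjusted p under 0.05. The filled 3A points belong to HRK, BBC3 and PMAIP1 and all lie left of 0.

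Over the 18 libraries the levels of some of the 10 genes followed each other, which is given as a description since R1881 moves several of them. The highest Pearson r of log2 CPM was 0.90 for BMF with MCL1, then 0.88 for BCL2L1 with BAK1, and HRK with BBC3 was at 0.80. The lowest was -0.88 for BMF with BCL2L1, and HRK with BAK1 was at -0.87. Among 11798 protein-coding genes with a mean of at least 1 CPM, the 5 whose pattern was most like that of HRK were NINL (r = 0.95), EIF4E3 (0.95), JDP2 (0.95), CBFA2T2 (0.95) and ATP2C2 (0.95). JDP2 encodes a repressor of the AP-1 family and EIF4E3 a cap-binding protein. NINL averaged 9.77 CPM in EV, 9.84 in WT and 8.29 in 3A with vehicle, and 1.33, 2.43 and 0.895 CPM with R1881. These 5 genes were picked for their likeness to HRK over the same 18 libraries. A group order shared with HRK thus follows from the choice.

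Other genes of the pathway were read from lists chosen by their known role. The lists were set with earlier results of these data known, so their counts and medians are description only. For these lists a call is counted as held if it passed by edgeR with all libraries and without any 1 library of the groups compared. Counts are to be read beside all tested genes, of which R1881 raised 13.2%, 11.0% and 12.4% and lowered 12.0%, 9.14% and 12.1% in EV, WT and 3A. Of 16 genes of the p53 list, p53 itself and its targets, R1881 lowered 10 in EV, of which 9 held, 8 in WT, of which 8 held, and 8 in 3A, of which 7 held. The list's median log2 fold change was -0.50, -0.58 and -0.66, beside -0.02, -0.03 and -0.01 for all tested genes. TP53INP1, a stress-induced gene of autophagy and cell death, fell from 549 ± 19.4 to 132 ± 9.53 CPM in EV (SD, n = 3), with log2 fold changes of -2.06, -1.75 and -2.07 in EV, WT and 3A. SESN1, a sestrin that restrains mTORC1, had -1.48, -1.07 and -1.23. TNFRSF10B, the death receptor DR5, rose by 1.34, 0.87 and 1.23, and AEN, a nuclease gene, rose in EV (0.29), a call lost without replicate 2 of EV with vehicle or replicate 2 of EV with R1881. By edgeR the adjusted p of TP53INP1, SESN1 and TNFRSF10B was at or under 1.86e-07 in each state.

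Of 11 genes tested of death receptors, their ligands and adaptors, R1881 raised 5 in EV (4 held), 2 in WT (2 held) and 4 in 3A (3 held), TNFRSF10B among them, and lowered 2 (2 held), 1 (1 held) and 2 (1 held). The genes raised in EV included the adaptors TRADD, which held, and FADD, which did not. FADD shares 54.9% of its exon bases with the antisense gene AP000879.1 and is uncertain. The list's median was 0.12, 0.04 and 0.13 in EV, WT and 3A. TNFRSF21, the death receptor DR6, fell by 1.51, 1.23 and 1.37 on the log2 scale in EV, WT and 3A. Of 12 other BCL2 family genes tested of 16 listed, 1 rose in EV with R1881, BNIP3, which acts in the removal of mitochondria (0.67, held). In WT 2 rose and none held, and in 3A 3 rose and 2 held (BNIP3 at 0.71 and BNIP2 at 0.49). BID, a BH3-only gene cut by caspase 8, was the only gene of this list called lower, in all 3 states (-0.62, -0.50 and -0.51), and none of these calls held. The list's median was 0.14, 0.02 and 0.09. Of 15 apoptosome and caspase genes, 4 were called in EV, of which CASP2 (-0.41) and CASP6 (-0.53) held, 1 in WT that did not hold, and 1 in 3A that held, ENDOG (0.54). These counts stand beside 25.3%, 20.1% and 24.5% of all tested genes called in either direction, and the list's median was -0.01, -0.04 and -0.06. ENDOG shares 39.2% of its exon bases with SPOUT1 and is uncertain. Of 7 inhibitor of apoptosis genes tested, R1881 lowered 2 in every state and raised 1 in EV and 1 in WT, with a list median of -0.02, 0.19 and 0.13. CFLAR (c-FLIP), which blocks caspase 8 activation, rose in EV (0.38, held). BIRC3 fell in all 3 states (-0.82, -1.02 and -0.89), and the calls in WT and 3A held. NAIP was called lower in all 3 (-2.01, -2.12 and -2.88, all held), but it has near-identical copies and is uncertain. Of 6 genes of MCL1 protein turnover none was called with R1881 in EV or 3A, and 2 in WT did not hold.

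The list of regulators of BH3-only genes held 12 genes. R1881 raised 3 of them in every state, and lowered 2 in EV, 4 in WT and 2 in 3A, with a list median of -0.17, -0.21 and -0.22. With R1881 FOXO3, a forkhead factor known to induce BCL2L11 and BBC3, rose in all 3 states (0.68, 0.56 and 0.73, all held). KCNIP3, whose product DREAM is known as a repressor of HRK, fell in all 3 (-1.44, -1.51 and -1.12, all held). DDIT3, uncertain for the overlap given below, was also called lower in all 3, and these calls held. The other held calls with R1881 were E2F1, higher in EV and WT, and FOXO1, higher in EV and 3A. In 3A 3 genes of the list were lower in all 4 comparisons with EV and WT, and all 12 calls held. Of all tested genes 3.27% with vehicle and 4.06% with R1881 were lower in 3A than in EV. Against WT the shares were 2.99% and 1.77%. Between WT and EV none of these 12 genes was called with vehicle by edgeR, and with R1881 E2F1 was higher in WT (0.60) and TRIB3 lower (-0.37), calls that did not hold. The 3 genes were ATF4, the transcription factor of the integrated stress response, with DDIT3 (CHOP) and TRIB3, which act downstream of it. TRIB3 averaged 485 ± 42.2 CPM in EV, 414 ± 43.7 in WT and 174 ± 9.20 in 3A with vehicle, and 415 ± 51.7, 322 ± 42.3 and 154 ± 7.58 with R1881 (SD, n = 3). The log2 difference of TRIB3 to EV was -1.47 with vehicle and -1.43 with R1881, and to WT it was -1.25 and -1.06. DDIT3 differed from EV by -1.55 and -1.55 and from WT by -1.55 and -1.24, but shares 27.2% of its exon bases with MARS on the opposite strand and is uncertain. ATF4 differed from EV by -0.93 and -0.94 and from WT by -0.84 and -0.78. E2F1, a cell cycle factor that can induce BH3-only genes, was higher in 3A than in EV with vehicle (1.41) and R1881 (0.87) and than in WT with vehicle (0.81), and these 3 calls held. SESN2, a p53 list gene that ATF4 also induces, was lower in 3A in the same 4 comparisons, by 0.99 and 1.18 against EV and by 0.92 and 1.01 against WT, and all 4 calls held. Of the 16 genes of the p53 list 2 were lower in 3A than in EV with vehicle (2 held). With R1881 3 were lower than in EV (2 held) and 1 was higher (not held), beside 4.39% of all tested genes that were higher. Against WT 2 were lower with vehicle (1 held) and 2 with R1881 (2 held). The lower counts are to be read beside the shares for 3A given above.

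**Figure D5:**
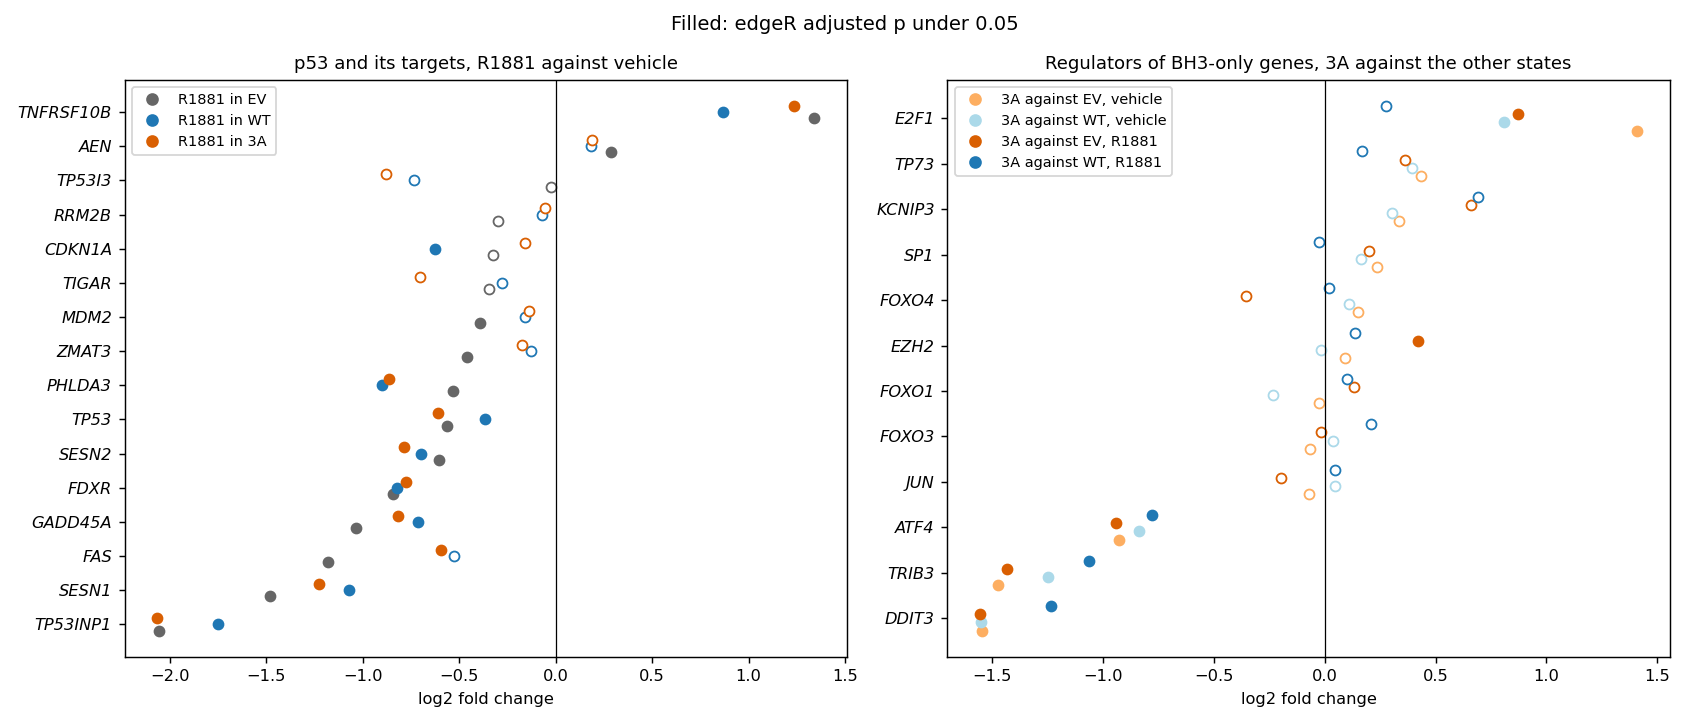
Log2 fold changes of the 16 genes of the p53 list with R1881 in each state (left) and log2 differences of 3A to EV and WT for the 12 regulators of BH3-only genes (right); filled points passed an edgeR adjusted p under 0.05. TNFRSF10B stands right of 0 in all 3 states and TP53INP1 farthest left, and ATF4, TRIB3 and DDIT3 stand left of 0 in all 4 comparisons of 3A.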

How the data were processed

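RNA was measured in 18 LNCaP libraries, 3 per group, with the rescue state and treatment read from their titles. The authors deposited whole-read counts for 58735 genes and FPKM values of the same genes; per the submitters' processing notes the tools were HISAT2 2.0.5 and featureCounts 1.5.0-p3 with the build hg38. Not given in the sources used here were the strand setting, the treatment of reads mapping to several genes and the annotation release. All 58735 genes matched GENCODE 29 in position. For 100% of 204701 values with at least 100 counts, the deposited FPKM equalled count over gene length over 1 constant per library within 0.1%, so FPKM served only to order levels.

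Counts were tested with edgeR 4.0.16 in R 4.3.3: filterByExpr (minimum count 10, minimum total 15), TMM scaling, 1 coefficient per group over all 18 libraries (12 residual degrees of freedom), quasi-likelihood tests for 12 comparisons and Benjamini-Hochberg adjustment over all 17162 genes tested. Standard errors come from the F statistic. CPM relate a count to the library total times its TMM factor. The procedure was also run on simulated counts without an effect of the replicate number, so that run cannot speak to such an effect. Replicates differed by more than sampling noise (chi-square per degree of freedom 9.26 to 54.0). Reads carry no molecular identifiers.

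The 10 genes and all lists were chosen with earlier results of these data known. Named were the 10 genes, the 5 genes most like HRK, and HOXB13, KLK3 and FKBP5 as label checks. Of each list at most 3 called genes with the smallest p per comparison were to be named. After the values were seen, list calls that were lost on leaving out a single library were counted but mostly not named. A gene named in 1 comparison was also given in others. Also named were all held calls of the regulators with R1881 and all luminal markers called lower in WT than in EV. KLK3 rose with R1881 by 2.21, 2.38 and 1.98 on the log2 scale in EV, WT and 3A.

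Same-numbered libraries deviated together, with every correlation over 0.1, for R1881 against vehicle in EV (0.16 to 0.20) and for 3A against EV with R1881 (0.11 to 0.15); the pairing comes from these deviations, not from the labels. The alternatives were RLE size factors, DESeq2 1.42.0, no filter on low counts, at least 1 CPM in 3 libraries, a replicate block, only the groups compared, each library left out and, added after seeing the data, no scaling factors.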

Additional observations from a re-analysis of the deposited data

How the results depend on the processing

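Over 120 results of single genes, the alternatives kept direction and side of the threshold in 1611 cases, lost a call in 34 and gained one in 17. In a further 78 the sign turned, with the value called in neither setting and no larger than 0.23 in size on the log2 scale. Apart from the runs that left out 1 library, the number of the 10 genes called moved past 1.5 times in 5 cases. The calls over all tested genes moved in these settings too and are given in brackets. R1881 in WT gave 3 in place of 5 with only the groups compared (2528 in place of 3450). WT against EV with R1881 gave 5 in place of 3 by DESeq2 (2157 in place of 1493). With R1881 3A against EV gave 1 in place of 2 with only the groups compared (1745 in place of 1451). With vehicle 3A against WT gave 2 in place of 1 with the replicate block (1732 in place of 967). The R1881 response of 3A minus WT gave 1 in place of 0 by DESeq2 (83 in place of 10). The cause was not tested. Leaving out 1 library gave 6 to 7 called with R1881 in EV, 3 to 5 in WT and 5 to 7 in 3A, 0 to 0 for WT against EV with vehicle and 1 to 4 with R1881, 1 to 2 for 3A against EV with vehicle and 1 to 2 with R1881, 1 to 2 for 3A against WT with vehicle and 2 to 3 with R1881, and 0 for the 3 differences of responses.

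The replicate block changed the call of BAX with R1881 in WT (-0.38), BBC3 for WT against EV with R1881 (-0.53) and BBC3 for 3A against WT with vehicle (-0.47), and no other call of the 10 genes. In the other 7 of 9 comparisons not every same-numbered correlation passed 0.1, though the highest reached 0.28 for R1881 in WT and 0.25 for 3A against WT with R1881. Over all tested genes the block gave 2709 calls in place of 1493 for WT against EV with R1881. For 3A against WT with R1881 it gave 1046 in place of 545. Over all 9, correlations of same-numbered libraries ran from -0.14 to 0.28, and 21 of 27 were nearest to their own number. Without scaling factors the share of called genes that were higher went from 52.4% to 33.8% with R1881 in EV, from 50.7% to 32.2% in 3A, from 53.5% to 76.9% for WT against EV with R1881, from 54.8% to 65.4% and from 52.0% to 62.1% for 3A against EV with vehicle and R1881, from 46.8% to 54.6% and from 44.4% to 32.5% for 3A against WT with vehicle and R1881, and from 54.6% to 45.4% with R1881 in WT. For the response differences it went from 38.2% to 60% (WT minus EV, 34 and 30 genes called) and from 70% to 55.6% (3A minus WT, 10 and 9 genes called). HRK is limited by depth, with 14 to 19 counts per library in 3A with R1881.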
